A study of Mus musculus with 17 samples.

Results

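Germinal center B cells (GCB) become antibody-secreting plasma cells by switching off the factors that hold B cell identity, among them Pax5 and Bcl6, and switching on Prdm1 (Blimp-1), Xbp1 and the machinery of secretion. Accessible chromatin follows this change, because nucleosomes are displaced where transcription factors bind and return where they leave. Dnmt3a and Dnmt3b place new methyl groups on CpG dinucleotides, and the change from GCB to bone marrow plasma cells (BMPC) is described here in mice whose B cells lack both enzymes (Dnmt3-deficient, KO).

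The comparison rests on 6 of the 16 ATAC-seq libraries in the deposited table, which are the 4 KO GCB libraries and the 2 KO BMPC libraries, over all of its 66177 accessible regions. A further KO BMPC library of the series was not analysed here. ATAC-seq uses a transposase to cut accessible chromatin and attach adapters to it, so that reads gather where chromatin is open. KO mice were Dnmt3afl/fl Dnmt3bfl/fl with 1 allele of a Cre active in B cells, and the Dnmt3-sufficient control mice (C) had the same floxed alleles without Cre, all of the strain background B6;129S4-Dnmt3atm3.1Enl Dnmt3btm5.1Enl/Mmnc. KO cells thus also differed from C cells in carrying Cre, which acts from early B cell development, so that the deletion precedes the germinal center. Mice were 8 to 12 weeks old. For GCB and BMPC they were immunized with phycoerythrin (PE) in complete Freund's adjuvant, and cells were taken 30 days later. GCB were B220+ Fas+ GL7+ PE+ cells of the lymph node, each library from a pool of 2 mice (3 female pools and 1 male pool in KO; 1 female and 1 male pool in C), and BMPC were CD138+ cells of the bone marrow of 1 female mouse each (2 KO, 3 C), a sort with no selection for PE. Naive B cells (nB), given for reference, were B220+ Fas- GL7- lymph node cells of 1 male mouse each (2 KO, 3 C), with no day of immunization given. Cell type, tissue, antigen selection, pooling and depth therefore changed together and cannot be told apart, nor can fewer cells of a type and less signal per cell in these bulk samples.

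Values are RPPM, the reads in a region scaled to a total of 1000000 reads in all regions of that library. The KO GCB libraries held 907959 to 2280954 reads in regions and the KO BMPC libraries 5357687 and 8232313, so that 3 reads, taken as the floor, were worth 1.32 to 3.30 RPPM in KO GCB and 0.364 and 0.560 RPPM in KO BMPC. The 2 regions of the mitochondrial genome took 7.43% to 10.1% of reads in KO GCB and 2.85% and 3.12% in KO BMPC, and promoter regions took 43.6% to 46.5% and 54.1% and 54.5%. Changes below are differences of log2(RPPM + 1), BMPC minus GCB, which understate the change of regions near 0. Opened and closed regions are those with an adjusted p no higher than 0.01 that changed 2-fold or more in limma's moderated test with Benjamini-Hochberg adjustment over all regions. Since each replicate was 1 pool or 1 mouse, adjusted p-values measure the spread between such pools and mice. That spread was estimated in 1 fit over all 16 libraries in 6 groups, so the 2 KO BMPC libraries borrow it from the other groups, nB and C cells included.

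From KO GCB to KO BMPC, 8013 regions opened (12.1% of those tested) and 13138 closed (19.9%). Closing was the commoner call and also reached further, with a median change of -1.75 among closed regions against 1.51 among opened ones, and 1499 closed regions but 253 opened ones changed by at least 8-fold on this scale. Opened regions had a median of 3.96 RPPM in KO GCB and 15.5 RPPM in KO BMPC, and closed regions had 8.50 and 1.22 RPPM. In KO nB, opened regions stood at a median of 2.81 RPPM and closed regions at 5.40 RPPM. In 1017 of the opened regions all 4 KO GCB libraries held 3 reads or fewer, and in 2513 of the closed regions both KO BMPC libraries did, so the size of these changes is set in part by depth and by the pseudocount. Regions in which the KO BMPC libraries lay wholly above or wholly below the KO GCB libraries made up 60.0% of all regions, and 7966 opened and 13045 closed regions were among them. After quantile normalization the calls divided almost evenly, with 10270 opened and 10345 closed, and the median change over all regions moved from -0.03 to 0.08. The plot of change against level shows the closed regions reaching further from 0 than the opened ones.

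**Figure D1:**
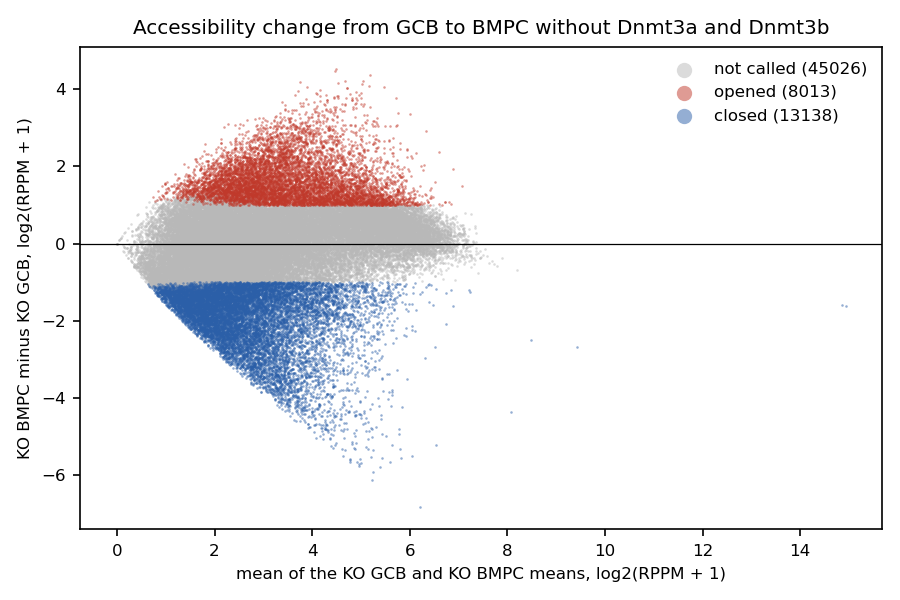
Change in accessibility from KO GCB to KO BMPC (difference of log2(RPPM + 1), vertical axis) against the mean level of the 2 groups (log2(RPPM + 1), horizontal axis), 1 point per region. The 8013 opened regions are red, the 13138 closed regions blue and the 45026 others gray, and the closed regions extend to -6.84 while the opened ones extend to 4.53.

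The letters below are the central 200 bp, on the plus strand of mm9, of regions that carry this change. The first 3 are the opened regions of largest change and the next 3 the closed regions of largest change, leaving out Myl12a, which lies in a UTR, and Gata6, and 4 more are regions of plasma cell, secretory and B cell genes (Txndc5 and Fam46c opened, Id3 and Cd2 closed) with the most motif matches. The last, at S100z, is described with the differences between KO and C. Capitals mark matches on either strand to the letters CAGCTG (the E box bound by E2A), CAGGTG (an E box bound by E proteins and ZEB factors), GGAAGT (PU.1 and other ETS factors), CCCNNGGGA (EBF), ATGCAAAT (the octamer of OCT factors), GAAANNGAA (IRF factors) and AAAGTGAAA (Blimp-1).
Arfip1 chr3:84491959-84492158: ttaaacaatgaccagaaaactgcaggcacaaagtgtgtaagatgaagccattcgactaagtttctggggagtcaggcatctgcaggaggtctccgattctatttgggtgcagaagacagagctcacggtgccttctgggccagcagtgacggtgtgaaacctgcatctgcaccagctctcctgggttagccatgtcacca
Fndc3b chr3:27476520-27476719: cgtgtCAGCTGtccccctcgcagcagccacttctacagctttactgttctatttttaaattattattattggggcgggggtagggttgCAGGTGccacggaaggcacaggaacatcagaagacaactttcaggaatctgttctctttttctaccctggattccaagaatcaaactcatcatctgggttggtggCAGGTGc
Stard5 chr7:90782449-90782648: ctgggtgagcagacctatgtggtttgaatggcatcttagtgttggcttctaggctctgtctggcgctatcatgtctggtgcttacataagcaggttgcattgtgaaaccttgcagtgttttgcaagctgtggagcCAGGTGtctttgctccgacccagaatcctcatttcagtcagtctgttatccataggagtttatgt
Mbip chr12:57504286-57504485: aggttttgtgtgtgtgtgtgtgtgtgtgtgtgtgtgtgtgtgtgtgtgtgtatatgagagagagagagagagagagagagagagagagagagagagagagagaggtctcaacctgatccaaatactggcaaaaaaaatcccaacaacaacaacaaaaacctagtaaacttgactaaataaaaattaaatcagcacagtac
Eef2kmt chr16:5496425-5496624: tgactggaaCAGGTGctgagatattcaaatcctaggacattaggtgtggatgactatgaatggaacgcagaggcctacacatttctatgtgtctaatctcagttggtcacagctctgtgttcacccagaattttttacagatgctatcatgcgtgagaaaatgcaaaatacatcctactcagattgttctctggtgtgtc
Coro1c chr5:114325457-114325656: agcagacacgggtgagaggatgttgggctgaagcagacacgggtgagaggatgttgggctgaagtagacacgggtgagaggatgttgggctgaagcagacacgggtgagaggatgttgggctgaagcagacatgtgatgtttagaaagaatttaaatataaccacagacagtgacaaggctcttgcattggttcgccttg
Txndc5 chr13:38638699-38638898: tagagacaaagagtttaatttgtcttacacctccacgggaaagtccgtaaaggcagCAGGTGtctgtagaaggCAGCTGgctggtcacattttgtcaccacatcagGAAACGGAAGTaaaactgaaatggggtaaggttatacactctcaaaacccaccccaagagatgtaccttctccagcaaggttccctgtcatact
Fam46c chr3:100308103-100308302: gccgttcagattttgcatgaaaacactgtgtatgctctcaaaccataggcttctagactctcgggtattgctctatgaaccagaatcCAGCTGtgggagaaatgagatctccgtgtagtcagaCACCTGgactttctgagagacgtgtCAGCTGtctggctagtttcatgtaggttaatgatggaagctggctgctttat
Id3 chr4:135683541-135683740: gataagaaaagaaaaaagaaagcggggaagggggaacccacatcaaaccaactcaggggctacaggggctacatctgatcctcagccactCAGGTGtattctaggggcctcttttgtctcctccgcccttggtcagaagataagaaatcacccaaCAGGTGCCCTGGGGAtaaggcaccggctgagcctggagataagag
Cd2 chr3:101096725-101096924: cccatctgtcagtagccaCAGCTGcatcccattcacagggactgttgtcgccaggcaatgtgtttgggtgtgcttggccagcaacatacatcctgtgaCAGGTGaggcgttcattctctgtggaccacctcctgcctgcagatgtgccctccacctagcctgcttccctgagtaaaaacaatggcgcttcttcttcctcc
S100z chr13:96264838-96265037: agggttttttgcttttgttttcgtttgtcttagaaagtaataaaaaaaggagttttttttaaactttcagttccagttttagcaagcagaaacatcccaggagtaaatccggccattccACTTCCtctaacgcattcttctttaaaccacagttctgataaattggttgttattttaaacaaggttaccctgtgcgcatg

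The Fndc3b window held CAGGTG at 2 places and CAGCTG at 1, the Stard5 window held CAGGTG, and the Arfip1 window held none of the 7 motifs. Among the closed regions, the Mbip window was made largely of dinucleotide repeats and the Coro1c window of a repeated unit, and the values of both are uncertain where reads could map to more than 1 copy. The Txndc5 window held both E boxes once each and an IRF match that overlaps an ETS match. A match here is a description of letters, not of a bound factor.

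The 12 opened and 12 closed regions of largest change were chosen among those whose KO GCB and KO BMPC libraries did not overlap, and were assigned to genes of varied roles. The largest opening was in an exon and 3' UTR of Myl12a, a myosin light chain (chr17:71342677-71343265), which had 0, 2.55, 0.877 and 0.699 RPPM in the KO GCB libraries and 37.4 and 45.7 RPPM in the KO BMPC libraries (log2 change 4.53 ± 0.38 (SE), adjusted p = 1.22e-10). An intron of Arfip1, which encodes a partner of small GTPases in vesicle traffic, held the region at chr3:84491694-84492424, with 1.1, 4.46, 1.32 and 0.699 RPPM in the KO GCB libraries and 46.8 and 48.2 RPPM in the KO BMPC libraries (log2 change 4.22 ± 0.35 (SE), adjusted p = 7.53e-11). At both genes each KO GCB value stood on 7 reads or fewer. Kdelr1, the receptor that returns proteins to the endoplasmic reticulum, had an intronic region at chr7:53132192-53132806 with 0, 1.91, 1.75 and 0 RPPM in the KO GCB libraries and 24.8 and 29.1 RPPM in the KO BMPC libraries (log2 change 4.05 ± 0.40 (SE), adjusted p = 3.05e-09). Wipi1, an autophagy protein, had 2.2, 6.36, 2.63 and 6.29 RPPM in the KO GCB libraries and 79.3 and 84.7 RPPM in the KO BMPC libraries in an intron at chr11:109459961-109461245 (log2 change 4.05 ± 0.29 (SE), adjusted p = 7.22e-12). In none of these did a KO GCB library hold more than 10 reads. Other regions of the 12 with the largest opening were assigned to Gata6, Fndc3b, Stard5, Spag9, Ifnar2 (a chain of the type I interferon receptor), Neat1, Onecut1 and Iqgap3, with changes from 4.03 to 4.36. Several lay far from the start of the gene they were assigned to, such as the one upstream of Gata6, and assignment by distance does not show which gene a region serves.

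The closed regions of largest change were high in every KO GCB library and near 0 in both KO BMPC libraries. Upstream of Mbip, at chr12:57503729-57505043, the values were 128, 153, 143 and 155 RPPM in the KO GCB libraries and 0.364 and 0.187 RPPM in the KO BMPC libraries (log2 change -6.84 ± 0.21 (SE), adjusted p = 1.21e-18). At chr16:5496083-5496968, assigned to Eef2kmt, they were 62.8, 78.3, 81.1 and 69.9 RPPM in the KO GCB libraries and 0.121 and 0 RPPM in the KO BMPC libraries, where the KO BMPC value rests on 1 read in 1 library (log2 change -6.12 ± 0.27 (SE), adjusted p = 3.82e-16). An intron of Pde4d, which encodes a phosphodiesterase that breaks down cyclic AMP, had 69.4, 81.5, 89 and 86 RPPM in the KO GCB libraries and 0.243 and 0.747 RPPM in the KO BMPC libraries at chr13:109476392-109477460 (log2 change -5.80 ± 0.19 (SE), adjusted p = 2.01e-18). In KO nB, the Eef2kmt region had a mean of 0.542 ± 0.0685 RPPM (SD, n = 2) and the Mbip region 12.0 ± 4.43 RPPM, so both stood higher in KO GCB than in either other KO cell type. The other 9 of these 12 regions were assigned to Coro1c, Sema6a, Rfx3, Pxdc1, Map2k6, Rgs6, Lsamp, Cst11 and Cybrd1 and changed by -5.93 to -5.56.

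**Figure D2:**
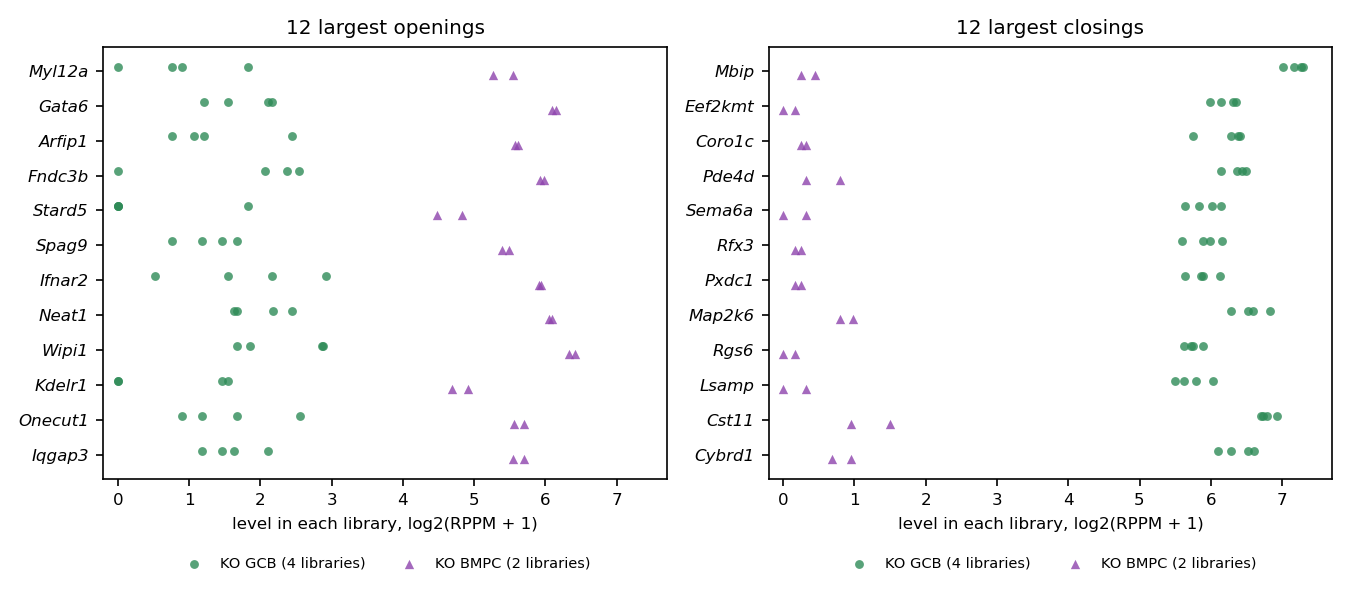
Level in each library (log2(RPPM + 1), horizontal axis) of the 12 opened regions (left) and 12 closed regions (right) of largest change, named by gene. Green circles are the 4 KO GCB libraries and purple triangles the 2 KO BMPC libraries, and regions were chosen for groups that do not overlap.

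Genes were ranked by their number of called regions, which favors genes with many regions. Of 14775 genes with a region, 2446 had opened regions only, 3866 had closed regions only and 1414 had both. Arfip1 had the most opened regions (22 of 59, with 7 closed), ahead of Glcci1 (21 of 38), Nsmce2 (20 of 32) and Atxn1 (18 of 49). Prdm1, the transcriptional repressor that drives plasma cell differentiation, had 16 opened regions of 33 and 1 closed. Fndc3b had 15 opened of 18 and none closed. Bcl11a, a transcription factor with a role in lymphoid development, had the most closed regions (32 of 48, none opened), followed by Btg1 (28 of 56), an antiproliferative gene often mutated in B cell lymphoma, and Pag1 (22 of 29), a membrane adaptor that restrains Src kinases. At Sorl1, a sorting receptor, all 20 regions closed, with changes from -4.17 to -1.40. Long stretches changed together, since 16 neighboring regions over 63.3 kb at Arfip1 all opened and 23 neighboring regions over 706 kb around Rab3c, Plk2, Gapt and Pde4d all closed.

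Germinal center genes had the largest share of closed regions among the lists of genes examined. Of their 117 regions, 61 closed (52.1%) and 3 opened (2.56%), against 19.9% and 12.1% of all regions. Their median change was -1.06, against -0.03 over all 66177 regions. Rgs13, a brake on chemokine signaling in GCB, had 9 of its 10 regions closed, among them its start region at chr1:146025312-146025954 with 33, 36.3, 35.1 and 40.5 RPPM in the KO GCB libraries and 0.486 and 0.187 RPPM in the KO BMPC libraries (log2 change -4.81 ± 0.20 (SE), adjusted p = 1.15e-16). Regions also closed at Lmo2 (-3.60, 8 of 15 regions closed) and at Klhl6 (-4.43, 7 of 9). Every named region was higher in all KO GCB libraries than in both KO BMPC libraries. Bcl6, the repressor that defines the germinal center program, had 11 of 16 regions closed, but its start region opened, from 16 ± 3.77 RPPM (SD, n = 4) in KO GCB to 35.1 ± 2.62 RPPM (SD, n = 2) in KO BMPC (log2 change 1.11 ± 0.17 (SE), adjusted p = 3.52e-06).

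At plasma cell genes more regions opened than closed. Of 228 regions at plasma cell factors, 81 opened (35.53%) and 25 closed (10.96%), with a median change of 0.64. Of 166 regions at surface and survival genes of plasma cells, 47 opened (28.31%) and 19 closed (11.45%), with a median of 0.49. Among all regions 12.1% opened and 19.9% closed. Near Xbp1, the factor that expands the secretory apparatus, the region at chr11:5426196-5427284 had 4.41, 4.46, 3.95 and 6.99 RPPM in the KO GCB libraries and 52 and 44.6 RPPM in the KO BMPC libraries (log2 change 3.07 ± 0.25 (SE), adjusted p = 7.45e-11). Sdc1 encodes CD138, the marker used to sort BMPC, and a region assigned to it at chr12:8835777-8836929 had 5.51, 5.73, 5.7 and 2.8 RPPM in the KO GCB libraries and 67.9 and 64.2 RPPM in the KO BMPC libraries (log2 change 3.54 ± 0.22 (SE), adjusted p = 3.64e-13). The groups did not overlap at either gene. Of the 14 start regions of plasma cell factors 4 opened and 1, that of Zbtb32, closed (log2 change -1.61 ± 0.22 (SE), adjusted p = 8.90e-07). Of the 18 of surface and survival genes 8 opened and none closed. Among the 11453 start regions of all genes 1133 opened and 697 closed. Opened starts included those of Prdm1 (log2 change 1.04 ± 0.14 (SE), adjusted p = 5.64e-07), Bhlhe41 (log2 change 2.10 ± 0.14 (SE), adjusted p = 1.80e-12) and Tnfrsf17, which encodes the survival receptor BCMA (log2 change 2.03 ± 0.33 (SE), adjusted p = 8.84e-06). A larger change among the factors was before the start of a transcript of Hivep3, a zinc finger factor, where the values were 9.91, 8.27, 9.65 and 6.29 RPPM in the KO GCB libraries and 90.9 and 106 RPPM in the KO BMPC libraries (log2 change 3.40 ± 0.24 (SE), adjusted p = 4.90e-12). Fam46c, a gene mutated in multiple myeloma, had 8 of 10 regions opened and none closed. Irf4, which GCB and plasma cells both use, had 4 of 12 regions closed and none opened, and its start region stood at 40.9 ± 5.19 RPPM (SD, n = 4) in KO GCB and 39.4 ± 0.758 RPPM (SD, n = 2) in KO BMPC (adjusted p = 0.78). Cxcr4, the receptor that holds cells in the germinal center dark zone and in the marrow, had calls in both directions, 6 opened and 10 closed of 40. One of them, at chr1:130479737-130480398, had 36.3, 46.5, 52.2 and 49.6 RPPM in the KO GCB libraries and 1.7 and 1.68 RPPM in the KO BMPC libraries (log2 change -4.12 ± 0.20 (SE), adjusted p = 2.48e-15).

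At secretory pathway genes more regions opened than closed, and most were not called. Of 125 regions at its genes, 36 opened (28.8%) and 13 closed (10.4%), against 12.1% and 19.9% of all regions, with a median change of 0.51. Of its 21 start regions 1 opened and none closed, whereas 1133 of the 11453 start regions of all genes opened and 697 closed. The median change was 0.44 at the secretory starts and 0.32 at the starts of all genes. Edem2, which sends misfolded glycoproteins to degradation, had all 3 of its regions opened, and the one in an intron at chr2:155548440-155549310 had 3.3, 1.27, 0.877 and 2.8 RPPM in the KO GCB libraries and 41.4 and 37.9 RPPM in the KO BMPC libraries (log2 change 3.81 ± 0.32 (SE), adjusted p = 1.28e-10). Txndc5, a disulfide isomerase abundant in plasma cells, had 6 of 13 regions opened, and the region printed above had 12.1, 9.55, 12.3 and 5.59 RPPM in the KO GCB libraries and 48.3 and 46.5 RPPM in the KO BMPC libraries (log2 change 2.21 ± 0.21 (SE), adjusted p = 1.32e-09). No KO GCB library reached the lower KO BMPC library at either gene. Ern1, which encodes the stress sensor that splices Xbp1 RNA, had 5 of 14 regions opened and none closed.

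Regions at genes of the B cell receptor and of antigen presentation closed at a higher share than all regions. At receptor and coreceptor genes, 66 of 239 regions closed (27.6%) and 20 opened (8.37%), against 19.9% and 12.1% of all regions, with a median change of -0.42. Of their start regions 7 of 23 closed, against 697 of the 11453 start regions of all genes. The start regions of Ms4a1, which encodes CD20 (log2 change -1.99 ± 0.14 (SE), adjusted p = 2.76e-12), Cd22 (log2 change -2.57 ± 0.28 (SE), adjusted p = 1.91e-08) and Fcer2a, the low-affinity IgE receptor (log2 change -3.20 ± 0.28 (SE), adjusted p = 2.23e-10), were among these 7. At antigen presentation genes 23 of 72 regions closed (31.9%) and 5 opened (6.94%), with a median of -0.37. Ciita, the master regulator of MHC class II genes, had 7 of 11 regions closed, and the region at chr16:10495875-10496507 had 30.8, 24.2, 32.9 and 23.8 RPPM in the KO GCB libraries and 0.243 and 0 RPPM in the KO BMPC libraries (log2 change -4.68 ± 0.25 (SE), adjusted p = 1.40e-14). KO BMPC had 2 reads and 0 reads there. H2-DMb2, a chain that loads peptides onto MHC class II, closed at its start (log2 change -2.11 ± 0.14 (SE), adjusted p = 1.30e-12), and this region is also the start region of the neighboring H2-DMb1. Of the 14 start regions of antigen presentation genes 3 closed and 1, that of Cd1d1 (1.32), opened. The starts of the MHC class II genes H2-Aa (-0.03), H2-Ab1 (-0.13) and H2-Eb1 (-0.92) were not called. The deposited table assigns no region to these genes, so they are not among the 72.

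Factors of B cell identity as a list had shares close to those of all regions, but members differed. Of 421 regions 46 opened (10.9%) and 83 closed (19.7%), against 12.1% and 19.9% of all regions, with a median change of 0.03. Pax5, which commits cells to the B lineage, had 13 of 21 regions closed and none opened. Its start region fell from 20.7 ± 3.87 RPPM (SD, n = 4) in KO GCB to 2.97 ± 1.30 RPPM (SD, n = 2) in KO BMPC (log2 change -2.47 ± 0.22 (SE), adjusted p = 4.40e-10). Ebf1 and Bach2 each had 13 closed regions (of 51 and 54) with 2 and 4 opened, while their start regions were not called. Id3, an inhibitor of E proteins, had 5 of 13 regions closed, and the region printed above had 27.5, 25.5, 38.6 and 34.3 RPPM in the KO GCB libraries and 2.79 and 1.31 RPPM in the KO BMPC libraries (log2 change -3.44 ± 0.21 (SE), adjusted p = 4.14e-13). Foxo1 had 6 opened and 1 closed of 30. Pou2af1, the OCT coactivator OBF-1, had a region in an intron at chr9:51029675-51030456 that opened, with 2.2, 3.18, 1.32 and 3.5 RPPM in the KO GCB libraries and 29.2 and 29.9 RPPM in the KO BMPC libraries (log2 change 3.15 ± 0.25 (SE), adjusted p = 4.46e-11).

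Receptors that position cells had 29 of 112 regions closed and 12 opened (median -0.18), or 25.9% and 10.7%, against 19.9% and 12.1% of all regions. S1pr3, a receptor for sphingosine 1-phosphate, had 9 of 11 regions closed, among them the one at chr13:51493047-51493724 with 41.9, 40.7, 42.5 and 40.5 RPPM in the KO GCB libraries and 1.09 and 0.747 RPPM in the KO BMPC libraries (log2 change -4.47 ± 0.22 (SE), adjusted p = 3.51e-15). The start region of Cxcr5, which draws B cells into follicles, closed (log2 change -1.66 ± 0.18 (SE), adjusted p = 1.73e-08) and that of Itgal, the alpha chain of LFA-1, opened (log2 change 1.44 ± 0.19 (SE), adjusted p = 3.84e-07). Activation factors had 31 of 184 regions opened and 23 closed (16.85% and 12.5%, against 12.1% and 19.9% of all regions), with a median of 0.22. Regions opened at Nfkbia, the inhibitor of NF-kappaB (2.23), and at the start of Rela (1.61), and closed at Relb (-2.60) and Egr3 (-1.77). Genes of the cell cycle had 9 opened and 4 closed of 76 regions, or 11.8% and 5.26%, against 12.1% and 19.9% of all regions. The start regions of Mki67 (-0.06), Ccnb1 (-0.02) and Mcm5 (-0.06) were not called. The 19 genes that the study itself links to Dnmt3, partly on these samples, had 57 of 193 regions closed (29.5%) and 16 opened (8.29%), against 19.9% and 12.1% of all regions. This list gives no independent evidence of a direction.

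Regions at DNA methylation enzymes had 7 calls of opening and 4 of closing among 52 (13.5% and 7.69%, against 12.1% and 19.9% of all regions). Dnmt3a and Dnmt3b were deleted by Cre in these cells, but the deletion removes catalytic exons and not the starts, so their start regions do not check the genotype. The start region of Dnmt3a, which the deposited table assigns to no gene and which is not among the 52, opened, from 16 ± 4.39 RPPM (SD, n = 4) in KO GCB to 64.6 ± 8.16 RPPM (SD, n = 2) in KO BMPC (log2 change 1.98 ± 0.18 (SE), adjusted p = 3.40e-10), and that of Dnmt3b was not called (log2 change 0.78 ± 0.16 (SE), adjusted p = 1.98e-04). In C cells the Dnmt3a start region changed by 2.09. Among the other enzymes, an intronic region of Dnmt1, the maintenance methyltransferase, opened (2.56), and one of Tet3, which oxidizes methylcytosine, closed (-2.31). Of the sort markers, the start region of Fas had 19.4 ± 2.33 RPPM (SD, n = 4) in KO GCB and 31 ± 0.831 RPPM (SD, n = 2) in KO BMPC, whereas Ptprc, which encodes B220, had 49.3 ± 5.71 RPPM (SD, n = 4) in KO GCB against 42.7 ± 0.969 RPPM (SD, n = 2) in KO BMPC; both missed the 2-fold limit.

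Markers of other cells were examined because a sort can carry them along. T cell markers had 10 opened and 15 closed of 50 regions (20% and 30%, against 12.1% and 19.9% of all regions). The summed level of the 7 start regions of these markers was 172 to 205 RPPM in KO GCB and 129 to 135 RPPM in KO BMPC. Of the defining T cell genes, Cd3g, Cd8a and Bcl11b had no region, and none of the regions of Cd3e and Cd4 was called. Called regions on this list included those of Cd2, which closed at 12 of 15, and Cd28, which plasma cells use as well and which opened at 4 of 5, and those of Tcf7, which opened at 6 of 13. Myeloid markers had 7 opened and 7 closed of 27 regions (25.9% each), with summed levels at 6 start regions of 62.9 to 68.3 RPPM and 81.7 to 81.9 RPPM. Lyz2, Mpo and S100a8 had no region. Csf1r closed at 2 of 2 regions, Csf3r and S100a9 at 1 of 1, and Cebpa and Fcgr3 at 1 of 2. Itgam opened at 4 of 12 regions and closed at 1, and Cebpe opened at 3 of 4. Erythroid and megakaryocyte markers had 2 closed (13.3%) and none opened of 15, with summed levels at 5 start regions of 69.4 to 84.6 RPPM and 103 to 105 RPPM. Gata1 and Pf4 had no region, and the 2 closed regions were those of Hbb-b1. Constitutive genes opened at 9 of 46 regions (19.6%) and closed at 3 (6.52%), with a median of 0.38. Start regions of all genes had a median of 0.32, so openings at gene starts are to be read against that level. The part of other cells in the changes was not tested.

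**Figure D3:**
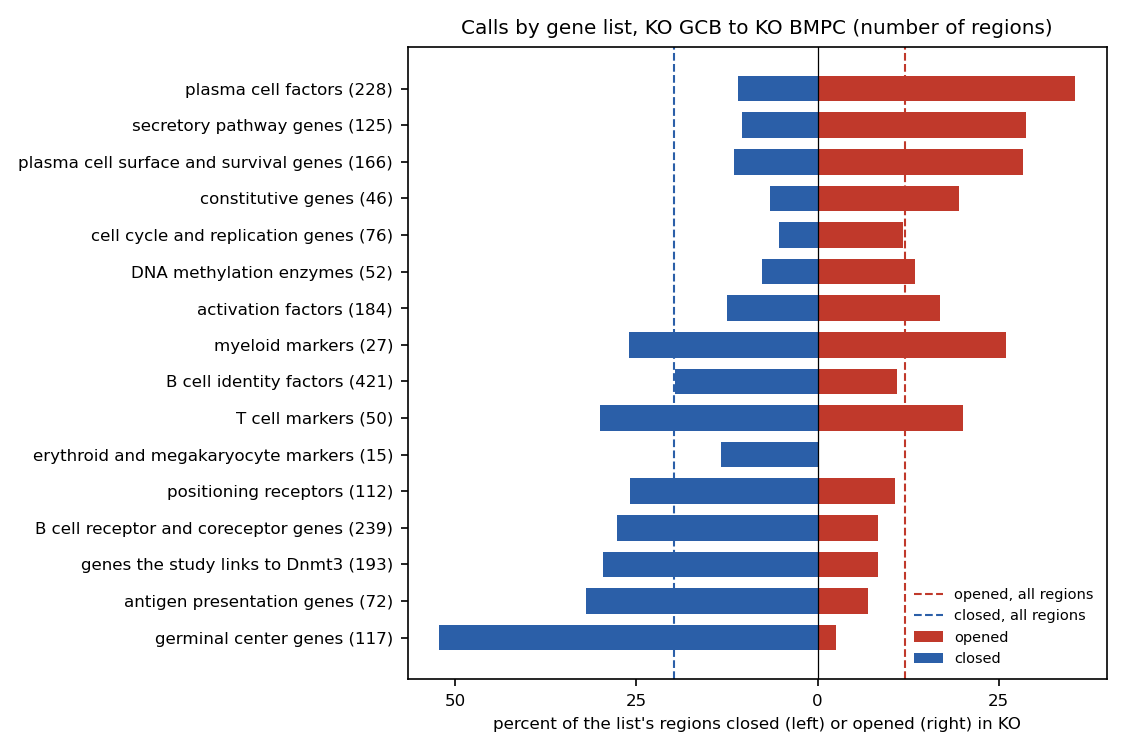
Share of the regions of each gene list that closed (blue, to the left) or opened (red, to the right) from KO GCB to KO BMPC, in percent, with the number of regions in parentheses. Dashed lines give the shares over all regions, 19.9% closed and 12.1% opened, and germinal center genes lie farthest to the closed side while plasma cell factors have the largest opened share.

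Opened and closed regions differed in where they lay. Promoters made up 20.1% of opened and 8.06% of closed regions against 21.7% of all regions, and intergenic regions made up 32.3%, 44.5% and 35.1%. Read the other way, 11.2% of promoter regions opened and 7.39% closed, while 11.1% of intergenic regions opened and 25.1% closed. Closed regions lay a median of 19749 bp from the nearest transcription start, opened ones 10529 bp and all regions 11374 bp. Opened regions were wider, with a median of 663 bp against 460 bp for closed regions. They held a median of 14.2 CpG per kb, against 11.2 in closed regions and 14.6 in all. On chromosome X 5.68% of regions opened and 18.3% closed, and on chromosome 11 16.02% opened and 14.3% closed. Chromosome X took 1.64% of reads in the 1 male KO GCB pool and 1.89% to 1.94% in the female KO GCB pools. In KO BMPC, from female mice, it took 1.65% and 1.68%. The part of sex was not tested.

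The letters of transcription factor motifs were counted on both strands of the central 200 bp, and are given for distal regions, which are those outside promoters. CAGGTG was found in 32.1% of opened and 15.8% of closed distal regions, against 20.7% of all. CAGCTG was found in 23.5%, 12.9% and 15.7%. GAAANNGAA was found in 16%, 8.26% and 10.5%, and AAAGTGAAA, which can overlap it, in 2.10%, 1.13% and 1.46%. These letters were thus commoner in opened than in closed regions. TATTTATAG (MEF2) was too, in 43 opened and 39 closed regions (0.67% and 0.33%, against 0.38% of all). GGAANNGAA, an ETS-IRF composite, was nearly even at 9.32%, 9.11% and 9.28%. The letters of PU.1, EBF and the octamer were commoner in closed regions. GGAAGT was found in 18.8% of opened and 33.1% of closed distal regions, against 24.3% of all. CCCNNGGGA was found in 2.85%, 5.88% and 3.98%, and ATGCAAAT in 3.55%, 5.23% and 3.41%. Over whole regions, where the wider opened regions have more room for a match, GGAAGT was in 41.7% of opened and 48.7% of closed distal regions and CAGGTG in 59.0% and 31.7%. The core letters of CTCF, AGGGGGCGC, were in 0.125% of opened and 0.527% of closed regions against 1.05% of all, so that they were rarer in both than in regions as a whole. The plot of motif shares gives all 21 motifs that were searched.

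**Figure D4:**
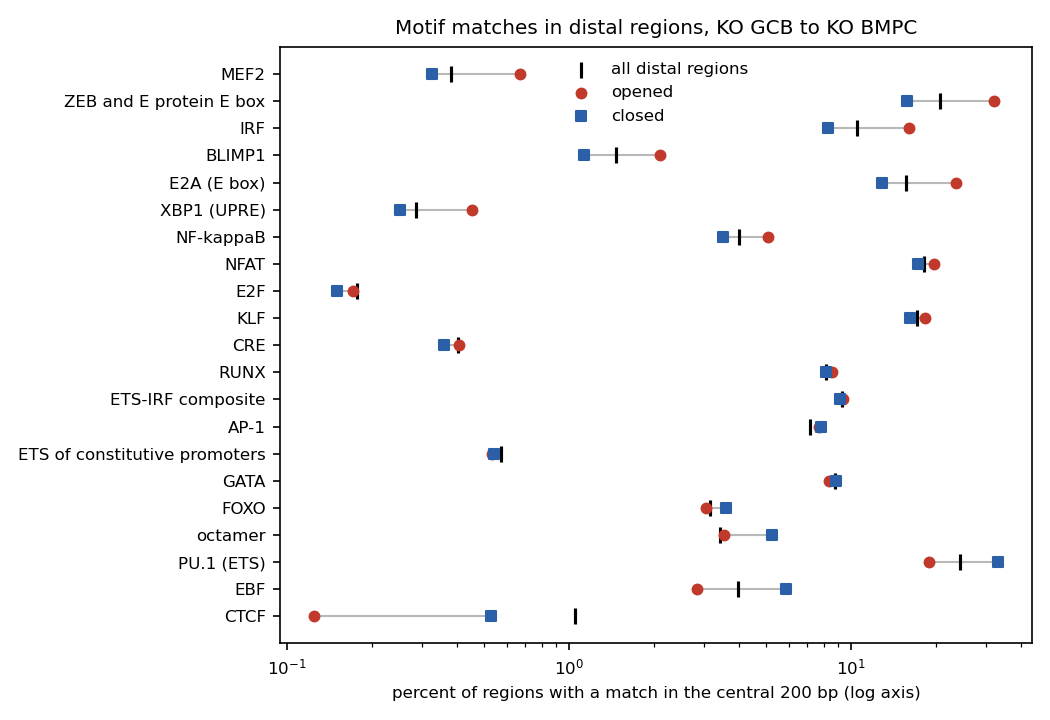
Percent of distal regions with a motif match in the central 200 bp (log axis), for opened regions (red circles), closed regions (blue squares) and all distal regions (black bars), 1 row per motif in order of the ratio of opened to closed. E box and IRF motifs have larger shares in opened regions, and PU.1, EBF and octamer motifs in closed regions.

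The same change in C cells, which shares no library with that in KO, opened 7474 regions (11.3%) and closed 12636 (19.1%). Of the regions opened in KO, 5363 opened in C, which is 66.9% of the KO list and 71.8% of the C list, and of the regions closed in KO, 10269 closed in C (78.2% and 81.3%). Across all regions the 2 changes had a Pearson's r of 0.91, as a description, since regions of a library share its depth. Among the 2646 regions opened in KO and not called in C, 94.0% moved in the same direction in C, with a median of 1.33 in KO and 0.77 in C, and being called on 1 side only does not show a difference. The difference itself, KO change minus C change in the same fit, was called at 0 of 66177 regions (0.0%) by limma, with 3062 regions higher and 2447 lower in KO at an unadjusted p under 0.05. At that limit DESeq2 had 2354 higher and 1695 lower, but edgeR's quasi-likelihood test had 2758 and 2921. With reads thinned to the shallowest library, limma had 2148 and 2338. Which side was larger thus depended on the setting. On the recovered reads, edgeR's quasi-likelihood test called 19 regions (0.0287%), DESeq2 called 19 of the 32818 it gave an adjusted p (0.0579%) and edgeR's likelihood ratio test 75 (0.113%). Of the first 2 lists, 12 regions were shared, and 18 of 19 in each had the higher change in KO. With 200 regions simulated to differ 4-fold, limma, run on all 66177 regions, recovered 40.5% of them for this difference, so changes of that size could be missed.

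Of the 6 regions with the smallest p for a higher change in KO, 3 lay near each other on chromosome 13, at F2rl1, which encodes the protease-activated receptor PAR-2, and its neighbor S100z. Between the genes, at chr13:96264434-96265443, the values were 8.8 and 2.81 RPPM in C GCB, 1.1, 0.636, 5.26 and 6.99 RPPM in KO GCB, 0.91, 0.365 and 0.156 RPPM in C BMPC and 22.2 and 25.4 RPPM in KO BMPC (difference 4.85 ± 0.84 (SE), adjusted p = 0.041). Both KO BMPC libraries lay above every other library there. In an exon and the 3' UTR of F2rl1 (chr13:96282574-96283044) they were 2.64 and 1.41 RPPM in C GCB, 1.1, 1.91, 1.32 and 1.4 RPPM in KO GCB, 0, 0 and 0.156 RPPM in C BMPC and 7.17 and 5.79 RPPM in KO BMPC (difference 3.12 ± 0.49 (SE), adjusted p = 0.036). Upstream of F2rl1 (chr13:96318274-96318778) they were 3.96 and 5.15 RPPM in C GCB, 2.2, 2.55, 1.75 and 2.8 RPPM in KO GCB, 2.47, 0.547 and 1.4 RPPM in C BMPC and 9.11 and 9.33 RPPM in KO BMPC (difference 2.87 ± 0.49 (SE), adjusted p = 0.036). At all 3 the region opened in KO and closed in C by the rule for calls, on 3 to 20 reads in each C GCB library. The start region of F2rl1 opened in KO (log2 change 1.34 ± 0.30 (SE), adjusted p = 0.00042) and was not called in C (0.14 ± 0.31), with a difference of 1.21 ± 0.43 (SE) and an adjusted p of 0.43. Of 9 neighboring regions from chr13:96251174 to chr13:96337434, 5 opened in KO and none closed, against 12.1% and 19.9% of all regions. This window was drawn around the 3 regions chosen for their small p, which are among the 5. Its count therefore gives no independent support. When 0.1 RPPM was added before taking logs, none of the 3 openings in KO passed the threshold, with changes of 3.31, 2.12 and 1.96. In the whole table, 1 other region opened in KO and closed in C, at Gpc6 on chromosome 14.

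In the other 3 of these regions, accessibility fell further in C than in KO. An intron of 2610015P09Rik had 25.1 and 24.4 RPPM in C GCB, 19.8, 18.5, 16.7 and 24.5 RPPM in KO GCB, 8.58, 7.12 and 6.54 RPPM in C BMPC and 16.4 and 20 RPPM in KO BMPC (difference 1.51 ± 0.25 (SE), adjusted p = 0.036), so that KO BMPC overlapped KO GCB. At Abcb10, a mitochondrial transporter, the region had 87.5 and 74.9 RPPM in C GCB, 62.8, 63.6, 61.4 and 71.3 RPPM in KO GCB, 2.99, 3.83 and 3.43 RPPM in C BMPC and 8.75 and 6.16 RPPM in KO BMPC (difference 1.24 ± 0.21 (SE), adjusted p = 0.036). It closed in both genotypes, with changes of -2.97 in KO and -4.22 in C. The region 19323 bp from AI848100 had a difference of 1.58.

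The 6 regions with the smallest p for a lower change in KO had adjusted p-values from 0.041 to 0.10. In an intron of Pxdc1 the values were 14.1 and 15.5 RPPM in C GCB, 20.9, 29.9, 25 and 26.6 RPPM in KO GCB, 12.7, 16.6 and 15.1 RPPM in C BMPC and 6.32 and 9.52 RPPM in KO BMPC (difference -1.59 ± 0.28 (SE), adjusted p = 0.041), with higher levels in KO than in C among GCB and lower ones among BMPC. Slamf1, a receptor of the SLAM family, had 9.68 and 10.3 RPPM in C GCB, 13.2, 12.1, 11 and 10.5 RPPM in KO GCB, 6.76, 7.66 and 7.16 RPPM in C BMPC and 2.92 and 2.24 RPPM in KO BMPC at its start (difference -1.40 ± 0.29 (SE), adjusted p = 0.1). The others were Cd47 (-1.71), the signal that protects cells from phagocytosis, Orai2 (-1.27), a calcium channel subunit, AW112010 (-1.90) and Ctif (-1.59). None passed the threshold for a call by limma. Grb7, an adaptor from the list the study links to Dnmt3, changed at its start by 2.52 in KO and 0.45 in C, with a difference of 2.07 and an adjusted p of 0.11.

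**Figure D5:**
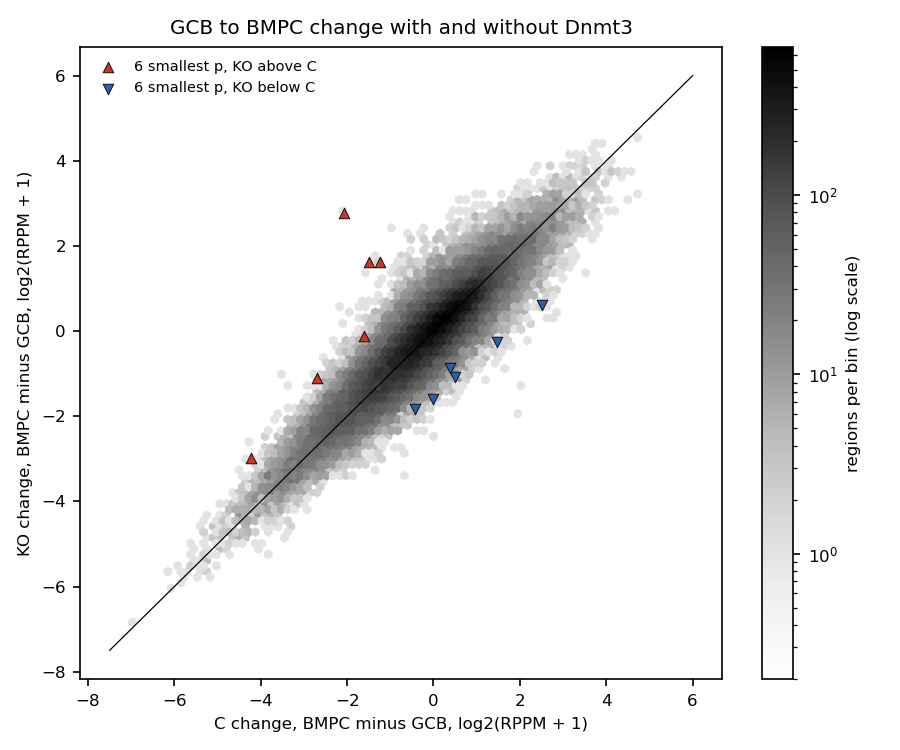
Change from GCB to BMPC in KO (vertical axis) against that in C (horizontal axis), both as differences of log2(RPPM + 1), with the number of regions per bin in gray. Triangles mark the 6 regions with the smallest p for the difference in each direction, and the line marks equal change; the 3 regions at F2rl1 and S100z lie at a positive change in KO and a negative one in C.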

How the data were processed

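ATAC-seq was performed on 3000 to 5000 sorted cells per library. Per the labels and methods, the authors mapped reads to mm9 with Bowtie (version 1.1.1), named Picard 1.127 and edgeR 3.12.1 among their tools, called peaks in each sample with MACS2 (version 2.1.0.20140616) at a q-value limit of 0.01 and merged them. These versions are those of the submitters' processing notes, and the methods give other versions of Bowtie and MACS2. The deposited values are RPM over regions (RPPM), reads in a region scaled to a total of 1000000 reads in all regions, which the authors computed for 16 libraries and 66177 regions; a further KO BMPC library was not analysed here. Columns of 9 comparisons made by the authors, holding fold changes and p-values, were not used.

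All values were whole multiples of 1 read within a tolerance of 0.001, so whole reads were recovered. Changes were tested on log2(RPPM + 1) with limma 3.58.1 (R 4.3.3), with a variance trend and 1 mean for each of 6 groups in 1 fit of 16 libraries, and no filter on low values. The threshold was an adjusted p (Benjamini-Hochberg) of 0.01 with a 2-fold change. The KO minus C difference was the interaction in that fit. Alternatives were edgeR 4.0.16 and DESeq2 1.42.0 on recovered reads, other scalings, pseudocounts and left-out libraries. The tests were checked on simulated data, in which limma recovered 73.5% of 200 regions changed 4-fold among 66177 for the KO change. Regions were assigned to genes by the deposited table and, where it named none, by the mm9 annotation.

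Named regions were the 12 of largest change in each direction whose libraries did not overlap, the 10 genes with most calls in each direction, the 6 regions with the smallest p for the difference in each direction, and up to 4 genes per list with the smallest p, with the design and sort genes. Other list members were named for their known roles after their values were seen. The regions, members and gene lists were chosen with earlier results of these data known. Values of some list members are not reported here.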

Additional observations from a re-analysis of the deposited data

Results flagged for a closer look

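In 5 of 110 sets of 4 KO GCB libraries that were examined, 1 library stood far from the other 3 by Dixon's ratio, and chance flags about 1 in 20 groups. At the opened Tcf7 region library 1, the shallowest, had 9.91 RPPM and the others 3.18 to 4.20 RPPM. At Xbp1 library 4 had 6.99 RPPM against 3.95 to 4.46 RPPM, and at Sdc1 the same library had 2.80 RPPM against 5.51 to 5.73 RPPM. Library 2 had 4.46 RPPM at Arfip1 against 0.699 to 1.32 RPPM, and 2.55 RPPM at Stard5 where the others had 0. These single values rest on 4 to 10 reads, and the 5 regions kept their calls without any 1 of the libraries.

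In 7 of the 12 regions named for the smallest p of the difference, the change from GCB to BMPC differed between KO and C by edgeR's quasi-likelihood test or DESeq2 on recovered reads, while limma called none of them. Over all regions these tests called 0.0287% and 0.0579%. The 12 were chosen by limma's p for the same difference in the same libraries, so the count of 7 gives no independent support. The differences of the limma fit, KO minus C, were 4.85 at S100z, 3.12 and 2.87 at F2rl1, 1.58 near AI848100, 1.51 at 2610015P09Rik, 1.24 at Abcb10 and -1.59 at Pxdc1. The other regions called by these count models were not named.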

How the results depend on the processing

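The number of regions called was within 1.5 times of that reported under all alternatives except a larger pseudocount and thinning. With a pseudocount of 5 RPPM, 10100 regions were called in KO (4081 opened, 6019 closed) and 10080 in C (4009 and 6071), and with reads thinned to the shallowest library 13120 in KO (4724 and 8396) and 12225 in C (4647 and 7578). Leaving out 1 library gave 15269 to 21721 calls in KO (5764 to 8431 opened, 9505 to 13382 closed), the lowest without KO BMPC replicate 2, where the remaining library is assumed to vary like the other groups, and 16864 to 19507 in C (5779 to 7113 and 9752 to 12663). The KO minus C difference, with 0 calls in the limma fit, had 0 to 1 calls when a library was left out, 10 with a pseudocount of 5 RPPM (10 higher in KO), 1 after quantile normalization (1 higher), 1 without the variance trend (1 higher), 10 at an adjusted p of 0.05 (9 higher, 1 lower), 19 by quasi-likelihood (18 and 1), 75 by likelihood ratio (54 and 21) and 19 by DESeq2 (18 and 1). After quantile normalization opened regions made up 49.8% of calls in KO and 49.3% in C. With only the KO GCB and KO BMPC libraries in the fit, 17125 regions were called in KO (6422 opened, 10703 closed).

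With the pool names F2 and M1 as a replicate block, 21150 regions were called in KO and 0 for the difference. Same-named pools of C and KO were of the same sex, and their deviations had correlations of 0.036 and 0.064. The deviations of the 2 C pools mirror each other, so these values cannot show whether same-named pools were otherwise related.

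Over whole regions in place of the central 200 bp, the ratio of the share in opened to that in closed distal regions became 0.856 for PU.1, 0.807 for EBF, 0.844 for the octamer, 1.76 for IRF and 1.86 for the ZEB and E protein letters. For 106 named regions, 2204 of 2225 KO values kept direction and side of the threshold. The KO change at 2610015P09Rik, which was not called, of -0.11 lay between -0.248 and 0.0215 when a KO BMPC library was left out, reversed without replicate 1. Depth limited regions at 3 reads or fewer, most of all in KO GCB. The cause of these shifts was not tested.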

Other observations

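Runs of neighboring regions that all moved one way were counted after the values were seen. Among opened regions, 15 in a row over 35 kb of chromosome 9 covered Loxl1, Pml and Stoml1, and 14 in a row over 227 kb lay at Fndc3b. Among closed regions, 19 in a row over 774 kb of chromosome 15 covered Cntn1, Lrrk2 and Slc2a13 with a median change of -3.64, and another 19 covered Gcnt1 and Prune2 over 229 kb of chromosome 19. Bcl11a held 18 in a row over 127 kb.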
